A study of Homo sapiens and Mus musculus with 6 samples.

Results

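Promoters can touch each other in the nucleus as well as touching enhancers. The chromatin fibre folds so that stretches of DNA that lie far apart on a chromosome meet, within domains held by cohesin and the insulator protein CTCF and between stretches that carry the same chromatin marks. In embryonic stem cells many promoters of developmental regulators are silent and covered by Polycomb proteins, and such promoters are known to gather.

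Promoter to promoter contacts under 1 Mb were described in mouse embryonic stem cells (mESCs), as detected by Promoter Capture Hi-C (CHi-C). CHi-C ligates DNA ends that lie close together after formaldehyde fixation and HindIII digestion, and then pulls out ligation products that hold a promoter fragment with RNA baits. A fragment targeted this way is called a bait, and the fragment joined to it is the other end. Members were chosen from the authors' list of mESC calls: both fragments had to lie on the same chromosome with midpoints less than 1 Mb apart, and the other end had to carry a promoter name or be listed as the bait of some call. Each fragment pair was counted once, and pairs with a gene symbol starting with Hist1h or Hox were left out, which removed 532 pairs. The rule gave 27653 promoter pairs, which is 29.4% of the 94150 mESC fragment pairs with a call (95% Wilson interval 29.1 to 29.7) and compares with 182817 fragment pairs over both CHi-C lists of the series.

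The cells were J1 mESCs (strain 129S4/SvJae) cultured on irradiated fibroblast feeders that were taken away by passaging before fixation, with 2 biological replicates. The calls were made by the authors on both replicates together, so the spread between replicates could not be measured, and every interval given here covers counting error only. A Hi-C library of the same cells (1 library, made before capture) and CHi-C of the human lymphoblastoid cell line GM12878 (3 biological replicates, also called together) served for comparison. CHiCAGO, the caller used by the authors, gives each bait and other end a score that grows with the excess of reads over the background expected at that distance, and calls with a score of at least 5 were deposited. The read count listed with a call is a value combined over the replicates and rounded, not a raw count. Neither marker genes nor expression were measured, so the identity of the cells rests on the labels.

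The 3 highest-scoring promoter pairs held both CpG-rich and CpG-poor promoters. The 250 bases before the annotated start of each promoter (build mm9, GENCODE vM1, 5′ to 3′ on the gene's strand) are shown for 5 promoters of the 3 pairs with the highest scores, followed by Nkx2-1 and Pax9, a pair of developmental regulators added after its values were seen. The start was the most upstream protein-coding one named on the fragment, or the most upstream of any kind where none was protein-coding. Capitals mark CpG dinucleotides.
Tbx3: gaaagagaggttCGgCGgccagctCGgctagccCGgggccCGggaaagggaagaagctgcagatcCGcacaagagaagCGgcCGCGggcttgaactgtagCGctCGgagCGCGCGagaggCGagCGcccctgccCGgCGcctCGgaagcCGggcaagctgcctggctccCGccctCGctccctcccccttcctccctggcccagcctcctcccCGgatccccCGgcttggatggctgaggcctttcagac
5430417L22Rik: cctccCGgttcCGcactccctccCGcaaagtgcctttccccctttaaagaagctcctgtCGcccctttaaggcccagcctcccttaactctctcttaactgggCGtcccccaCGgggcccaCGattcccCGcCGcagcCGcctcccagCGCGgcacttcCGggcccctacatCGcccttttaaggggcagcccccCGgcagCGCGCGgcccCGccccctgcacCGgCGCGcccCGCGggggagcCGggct
Bahd1: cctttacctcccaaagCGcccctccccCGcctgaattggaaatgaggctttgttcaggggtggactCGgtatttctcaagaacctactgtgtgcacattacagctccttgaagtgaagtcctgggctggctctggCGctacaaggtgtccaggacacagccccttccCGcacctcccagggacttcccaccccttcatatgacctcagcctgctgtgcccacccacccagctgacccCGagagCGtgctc
2810030E01Rik: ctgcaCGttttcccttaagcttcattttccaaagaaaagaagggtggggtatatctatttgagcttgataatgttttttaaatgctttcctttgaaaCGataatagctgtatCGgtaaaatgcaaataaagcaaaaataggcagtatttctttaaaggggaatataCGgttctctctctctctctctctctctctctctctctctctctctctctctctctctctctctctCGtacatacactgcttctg
Gm13334: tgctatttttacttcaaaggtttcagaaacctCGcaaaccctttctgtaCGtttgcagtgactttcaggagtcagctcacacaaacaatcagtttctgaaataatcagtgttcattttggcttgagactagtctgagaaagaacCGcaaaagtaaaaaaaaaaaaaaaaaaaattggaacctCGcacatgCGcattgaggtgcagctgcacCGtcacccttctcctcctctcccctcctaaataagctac
Nkx2-1: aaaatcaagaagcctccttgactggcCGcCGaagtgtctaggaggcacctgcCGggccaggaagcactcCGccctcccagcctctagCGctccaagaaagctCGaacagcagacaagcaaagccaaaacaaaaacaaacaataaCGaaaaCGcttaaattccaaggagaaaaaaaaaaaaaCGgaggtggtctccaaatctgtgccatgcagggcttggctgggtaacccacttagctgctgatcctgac
Pax9: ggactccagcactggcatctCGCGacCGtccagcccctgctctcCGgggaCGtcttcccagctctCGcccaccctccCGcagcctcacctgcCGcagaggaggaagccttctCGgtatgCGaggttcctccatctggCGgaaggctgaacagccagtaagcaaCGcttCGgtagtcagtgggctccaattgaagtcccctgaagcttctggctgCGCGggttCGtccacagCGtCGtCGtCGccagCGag

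The Tbx3 stretch was chr5:120120428-120120677 on the plus strand, upstream of the first exon and within the antisense gene Gm2301 outside its exons, and it held 24 CpGs. Both T-box factor Tbx3 and its partner, the LIM homeodomain factor Lhx5, are transcription factors of embryonic patterning. The 5430417L22Rik stretch was chr2:118571244-118571493 (plus strand, 25 CpGs), and that of Bahd1, which codes for a heterochromatin protein, was chr2:118725863-118726112 (plus strand, 7 CpGs). The 2810030E01Rik stretch was chr2:17970679-17970928 on the minus strand with 5 CpGs, and the stretch of Gm13334 was chr2:18615409-18615658 on the plus strand with 6 CpGs. The stretch of Nkx2-1, a factor of thyroid, lung and forebrain, was chr12:57637896-57638145 (minus strand, 9 CpGs), and that of Pax9, a factor of teeth and pharyngeal pouches, was chr12:57792504-57792753 (plus strand, 21 CpGs), within the gene Gm15524 outside its exons. The stretches of 2810030E01Rik and Pax9 run past the edge of the captured HindIII fragment, and the other 5 lie within it. None of the 7 stretches overlapped an annotated exon.

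The distances of promoter pairs were compared with those of promoters and unbaited fragments. Their median distance was 147490 bp (95% order-statistic interval 145401 to 149814), with quartiles of 67190 and 279822 bp, against a median of 126559 bp (125260 to 127924) for the 61407 pairs of a promoter and an unbaited fragment in the same range. From 25 kb on, the medians were 165194 and 160814 bp, so most of the gap went with pairs under 25 kb. The longest pair spanned 999378 bp, and the shortest pair left out for its length spanned 1000470 bp. The median read count was 12, with quartiles of 8 and 19, a lowest value of 3 and a highest of 322. The median score was 7.12 (7.08 to 7.16) for promoter pairs and 6.36 (6.34 to 6.37) for promoters with unbaited fragments. Of the promoter pairs, 779 (2.82%) reached a score of 20 and 7 passed a score of 100, while 1.5% of the pairs with unbaited fragments reached 20. These scores were not measured alike. For a promoter pair listed from both ends the higher score was taken, whereas a pair with an unbaited fragment has a score from 1 end only. The authors' background also expects more reads between 2 baits than between a bait and an unbaited fragment at equal distance. The list named 17157 baited fragments, and 14130 of them (82.4%) were in at least 1 promoter pair. A fragment is in the list only through a call, and the paper reports more captured baits than these. The share is thus one of listed fragments and not of the capture design.

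Of the 246575 promoter pairs that the listed baited fragments could form under 1 Mb, 11.2% were called. The share fell from 35.7% under 25 kb (95% Wilson interval 34.5 to 36.8) to 24.1% at 100 to 200 kb and 1.47% (1.39 to 1.56) at 600 kb to 1 Mb. Of the 9171448 possible pairs of a bait and any HindIII fragment not listed as baited, counted as unbaited here, 0.67% were called. Captured baits without any call fall among these unbaited fragments. This comparison depended on what was counted as possible. Directly neighbouring fragments were kept among the possible pairs of both kinds, although they may not have been scored. This bears most on the shares under 25 kb. A promoter pair can be called from either end, and a promoter enters the count only if it appears in some call, whereas most unbaited fragments appear in none. When each bait end was counted separately and only the 35483 unbaited fragments listed in a call were taken, 7.28% of bait to promoter combinations (7.21 to 7.36) and 6.05% of bait to unbaited combinations (6.0 to 6.10) were called. On that count the promoter share was 1.78 times the unbaited share at 600 kb to 1 Mb and 1.27 times at 100 to 200 kb, but under 25 kb it was the lower of the 2, at 22.96% against 27.7%. The 2 kinds still entered this count in unlike ways. An unbaited fragment entered only by being called as an other end, which raises its share. Of the 17157 baited fragments, 16265 were the bait of some call, whatever its other end. The shares are therefore not on equal terms.

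**Figure D1:**
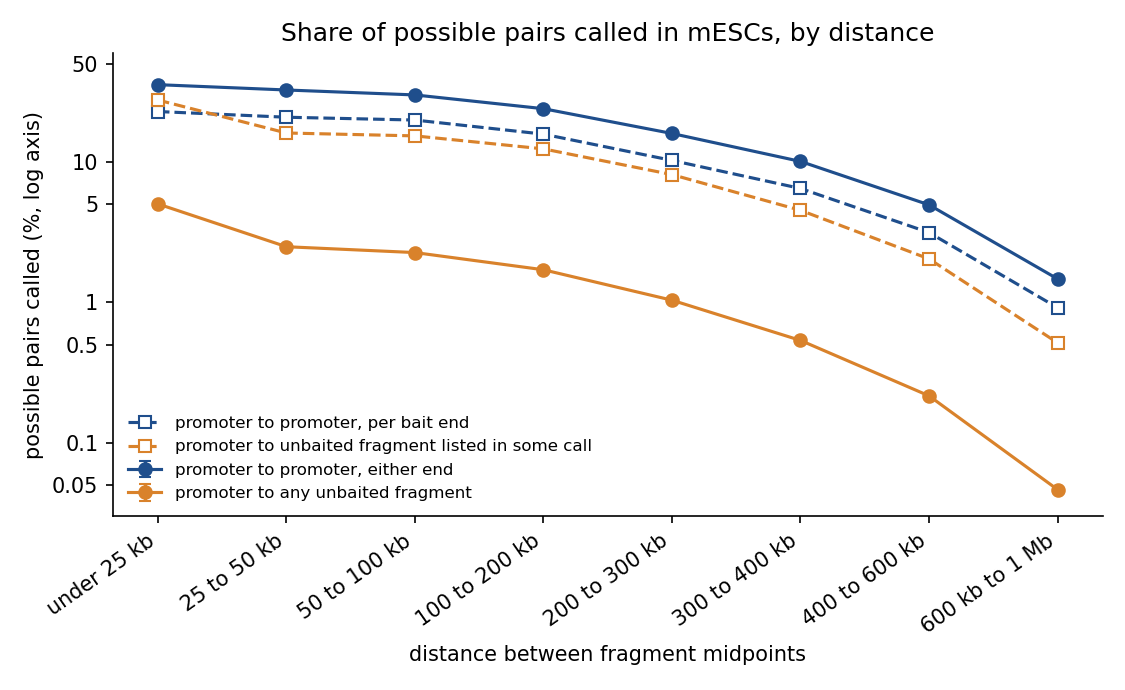
Share of possible pairs called in mESCs (log axis) against the distance class. Filled points with 95% Wilson intervals, mostly smaller than the points, give promoter pairs called from either end (blue) and promoters with any unbaited fragment (orange); open squares count each bait end separately and only unbaited fragments listed in some call. All 4 shares fell with distance, and the open squares lie close together, at 7.28% and 6.05% over all distances.

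Promoters were often skipped. In 18.5% of the pairs no other listed promoter lay between the fragments, and the median number in between was 3. The called share of possible pairs was 30.7% (30.0 to 31.4) with no promoter in between, 18.9% with 2 to 4, and 3.58% with 10 or more, and the median distance of the pairs rose over the same groups from 36135 to 350821 bp. The separate parts of distance and of intervening promoters were not tested. The strand of the genes made no visible difference: 11.3% of possible pairs in the same direction were called, 11.2% of convergent pairs and 11.2% of divergent pairs, with overlapping intervals. Of 37 possible pairs formed by alternative promoters of 1 gene, 10 were called (27.0%, interval 15.4 to 43.0), against 30.1% of all promoter pairs at the same distances.

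Most promoter pairs were called from a single end. Both fragments were the bait of some call in 26318 pairs, and 6791 pairs, or 24.6% of all (24.1 to 25.1), were listed from both ends. Of these 6791 pairs, 6786 carried the same read count in both listings, so the listings differ in score and not in reads. The higher score was 1.32 times the lower in the median pair, over 2 times the lower in 899 pairs and 9.62 times the lower at most. Over these pairs the rank correlation of the scores from the ends was 0.30, a description over pairs that share reads and baits. Pairs called from both ends made up 5.27% of the pairs with a score of 5 to 6 and 70.7% of those with a score of at least 20, where the higher of both scores was taken. Scores gathered between 33 and 36, where 92 listings fell, against 60 between 30 and 33 and 37 between 36 and 39. In 32 pairs the lower of the scores fell between 33 and 36, and in 21 of these the other listing of the same reads scored above 40. Of 120 pairs with a score over 36, 34 had both scores over 36. The reason for the gathering was not tested.

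The pairs with the highest scores were led by developmental regulators and by loci on chromosome 2. The promoters of 5430417L22Rik and Bahd1, 151.66 kb apart, had the highest score, 175.17 with 5430417L22Rik as the bait and 34.5 with Bahd1, on 184 reads. Tbx3 and Lhx5 followed at 761.918 kb, with 165 reads and scores of 34.38 from Tbx3 and 170.81 from Lhx5. The fragments of 2810030E01Rik and Gm13334 were 645.451 kb apart and scored 150.77 and 83.05 on 66 reads.

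The same 2810030E01Rik fragment also met the promoter of Bmi1, a Polycomb subunit, with 42 reads and scores of 92.6 and 71.16. Irx3 and Irx5, Iroquois homeodomain factors 556.348 kb apart on chromosome 8, scored 95.2 and 146.21 on 71 reads. Cdkn2c, a cyclin-dependent kinase inhibitor, and 3010003L10Rik scored 120.96 and 141.35 on 127 reads. These 3 pairs scored high from both ends.

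Nkx2-1 and Pax9, 156.877 kb apart, scored 131.19 and 34.39 on 129 reads. Pax9 also reached Foxa1, a forkhead factor of endoderm 850.274 kb away, with 47 reads and scores of 71.12 and 99.54. The remaining pairs among the 10 highest were Gm1337 with Bahd1 (111.99 and 34.03) and Pax3 with Sgpp2 (92.86 and 34.93). Pax3 is a neural crest and muscle factor. In both pairs the lower score fell in the gathering between 33 and 36. The same held for 5430417L22Rik with Bahd1, Tbx3 with Lhx5, and Nkx2-1 with Pax9. The ranks of these pairs thus rest on the higher listing alone. Among pairs of 600 kb to 1 Mb, the scavenger receptor gene Scarf2 and the T-box gene Tbx1 also stood in the 5 highest, at 787.88 kb with scores of 84.25 and 89.25 and 19 listed promoters in between. By reads over 100 kb, Wnt6 with the ETS factor gene Fev (172 reads) and Gm15825 with Tcfap2b (157 reads) were among the 5 highest. Their highest scores were 34.52 and 34.93, and both listings of both pairs fell in the gathering between 33 and 36, so these scores cannot be ranked against the reads.

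Among the lists with at least 10 possible pairs, developmental transcription factors had the highest share of pairs called. Of 53 possible pairs with a listed factor at both ends, 44 were called (83.0%, interval 70.8 to 90.8), against 17.8% of all promoter pairs at the same distances. The called pairs had a median distance of 169800 bp and a median score of 24.0, 26 of them scored at least 20, and 40 were called from both ends. In Hi-C, significant bin pairs covered 25 of the 44. Over all promoter pairs, 2.82% scored at least 20, 24.6% were called from both ends and 5.54% were covered in Hi-C. The Hi-C share also rose with the score over all promoter pairs. With the factor at 1 end only, 612 of 4077 possible pairs were called (15.0%), against 10.3% of all pairs at the same distances. The list was drawn up with earlier results of these data known, matched by symbol, and included a few antisense transcripts named after a factor, such as Dlx1as.

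**Figure D2:**
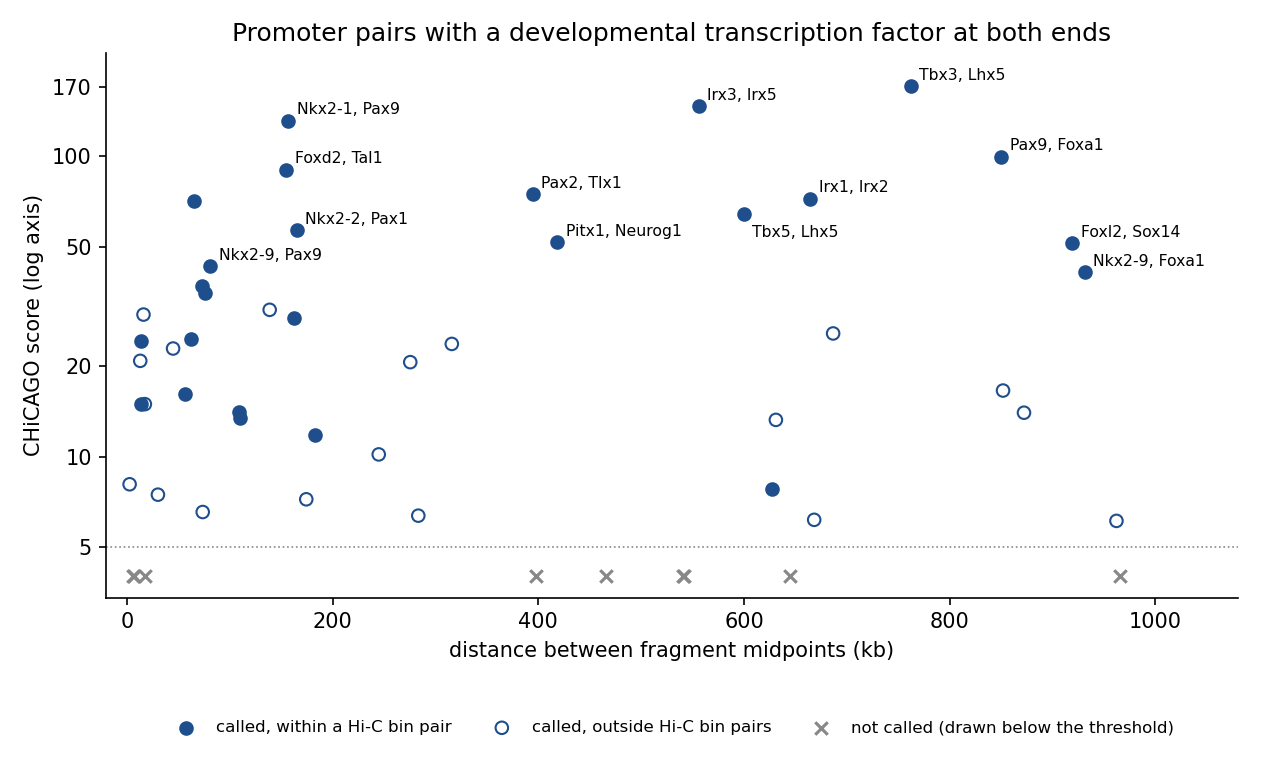
CHiCAGO score (log axis, higher of both listings) against distance for the 53 possible promoter pairs with a developmental transcription factor at both ends. Filled points are the 25 called pairs within a Hi-C bin pair, open points the other called pairs, crosses the 9 pairs not called, drawn below the score threshold of 5 (dotted line) since they have no score; scores above 40 reached out to 931 kb.

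Factors with the same and with different symbol stems both paired, the stem being the letters before the first digit of the symbol. Of 21 possible pairs of different symbols with the same stem, which include Pax6 with its antisense transcript Pax6os1, 19 were called, with a median distance of 75.9 kb and scores of 7.22 to 146.21. Of the other 32 possible pairs, which also hold pairs of related factors such as the forkhead genes Foxd2 and Foxe3, 25 were called, with a median distance of 283 kb and scores of 6.12 to 170.81. The share of all pairs at the same distances, 17.8%, was taken for the 53 pairs together and not for each group. Since the groups differ in distance, their called shares are not compared. All 5 possible pairs of Irx genes were called, over a median of 631 kb, against 3.90% of all pairs at the same distances. Irx1 met Irx2 over 664.644 kb with 41 reads and a score of 72.14, and Irx3 met Irx6 over 872.248 kb with 14 reads and a score of 14.01.

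At several loci every possible pair of developmental promoters under 1 Mb was called. On chromosome 12, Nkx2-1, Nkx2-9, Pax9 and Foxa1 gave pairs of Nkx2-9 with Pax9 (84 reads, score 43.03), Nkx2-9 with Foxa1 (21 reads, score 41.08, 931 kb) and Nkx2-1 with Nkx2-9 (77 reads, score 35.12) beside those named above, while Nkx2-1 and Foxa1 lie over 1 Mb apart. On chromosome 2, Nkx2-4, Nkx2-2, Pax1 and Foxa2 were joined in all 6 combinations, from Nkx2-2 with Pax1 (65 reads, score 56.85) down to Nkx2-4 with Foxa2 (6 reads, score 6.12, 962 kb). On chromosome 5, Tbx5, a heart and forelimb factor, met Lhx5 over 599.906 kb (73 reads, score 64.27) and Tbx3 over 162.012 kb (77 reads, score 28.87). Tal1, a blood and endothelial factor, met Foxd2 (92 reads, score 90.13) and Foxe3 (40 reads, score 30.8).

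The 9 pairs not called ran from 5.62 to 966 kb, with a median of 466 kb. They were Neurog3 with Atoh7, a pair of Sox4 fragments, Sox12 with Foxs1, Sox2ot with Sox2, Tlx2 with Lbx2, Tlx2 with Vax2os1, Nkx6-2 with Msx3, Zic4 with Zic1, and Foxp3 with Gata1. Sox2, a factor that is active in mESCs, had 1 possible pair within the list and it was not called. A pair that was not called is one absent from the list, not one shown to lack contact. Zic4 and Zic1 lie on directly neighbouring fragments, and the authors recommend removing fragments adjacent to the bait. The pair of Zic4 and Zic1 may thus not have been scored at all.

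Pairs with a listed factor at 1 end were led by Pax3 with Sgpp2, named above. En2, a midbrain factor, met the signal gene Shh over 297.368 kb with 65 reads and a score of 90.4. Tbx1 met Gp1bb, a platelet receptor gene, over 36.2 kb with 322 reads, the highest read count of all promoter pairs, and a score of 84.68. The share of pairs with a listed factor at either end was 2.11% (1.81 to 2.45) at a score of 5 to 6, 2.68% at 10 to 20, and 10.8% (8.79 to 13.2) at 20 or more.

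Secreted developmental signals showed a similar share in fewer pairs. Of 14 possible pairs 10 were called (71.4%, interval 45.4 to 88.3), against 27.9% of all pairs at the same distances. Wnt10b met the Hedgehog gene Dhh over 117.655 kb with 55 reads and a score of 40.46, and Wnt1 met Dhh with 76 reads and a score of 19.62. Wnt6 met Ihh, another Hedgehog gene, with 52 reads and a score of 35.29. The 4 pairs not called were Wnt3a with Wnt9a, Gdf10 with Gdf2, Fgf6 with Fgf23, and Fgf4 with Fgf15.

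Pluripotency genes gave few possible pairs. Of 4, 2 were called, against 26.4% of all pairs at the same distances. Lefty2 and Lefty1, inhibitors of Nodal signalling, were joined over 46.2 kb with 18 reads and a score of 15.64, from the Lefty1 bait only. Dppa4 and Dppa2 were joined over 28.3 kb with 20 reads and scores of 8.06 and 5.97. Zfp281 with Nr5a2 and Dppa3 with Nanog were not called. With a pluripotency gene at 1 end, 10.8% of 702 possible pairs were called against 11.02% of all pairs at the same distances.

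Genes of Polycomb and of housekeeping complexes gave small numbers too. The Polycomb list gave 2 of 5 possible pairs, against 22.0% of all pairs at the same distances. Both possible pairs of cytosolic ribosomal protein genes were called, against 18.8% of all pairs at the same distances. The higher-scoring was Rps29 with Rpl36al (47 reads, score 24.01). The list of proteasome symbols gave 2 of 3 pairs, against 13.8% at the same distances. These were Psmb4 with Psmd4 at a score of 7.46 and Psmc3ip with Psme3 at 7.71, but Psmc3ip is a meiotic recombination factor that shares only the prefix. None of the 8 possible pairs of respiratory chain genes, which include a pair of Ndufb8 fragments, was called, against 16.9% at the same distances. The 1 pair of mitochondrial ribosomal protein genes was not called either, against 4.96%. These counts are too small for a comparison between the lists.

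Clustered gene families paired in different measure. Of 190 possible protocadherin pairs on chromosome 18, 92 were called (48.4%, interval 41.4 to 55.5), against 22.8% of all pairs at the same distances, led by Pcdha11 with Pcdha3 (51 reads, score 35.7). Keratin genes gave 219 of 1270 (17.2%, 15.3 to 19.4) against 15.4%, and zinc finger genes 75 of 379 (19.8%, 16.1 to 24.1) against 19.01%. Olfactory, vomeronasal and trace amine receptor genes gave 556 of 5662 (9.82%, 9.07 to 10.6) against 13.8%, led by Olfr206 with Olfr209 (40 reads, score 38.71). Secreted immune genes gave 7 of 54 (13.0%, 6.42 to 24.4) against 27.7%, led by the chemokine genes Ccl3 and Ccl4 (81 reads, score 29.74).

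**Figure D3:**
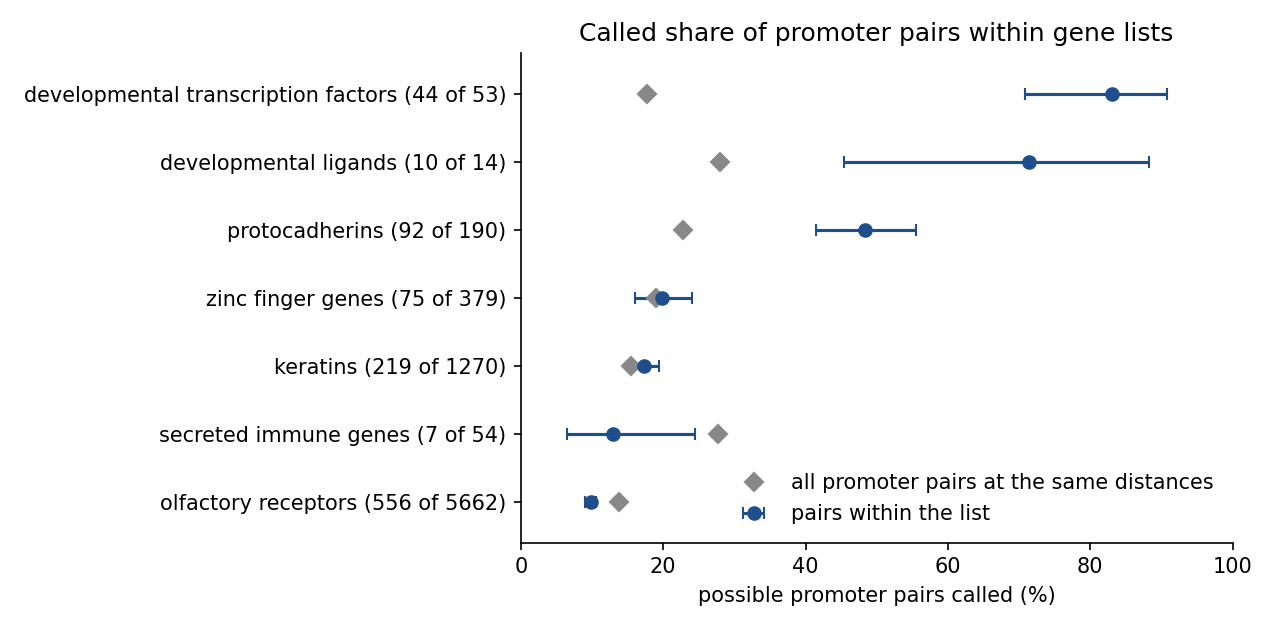
Share of possible promoter pairs called within each gene list with at least 10 possible pairs (blue, 95% Wilson intervals, called and possible pairs in brackets) and the share of all promoter pairs called at the same distances (grey diamonds). Developmental factors, signals and protocadherins lie above their diamonds, at 83.0%, 71.4% and 48.4%, and olfactory receptors and secreted immune genes below.

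Symbols with a shared stem, such as Olfr or Zfp, were used to mark gene families across all promoters. Both genes shared a stem in 4.72% of the pairs (4.48 to 4.98) and in 3.38% of the possible pairs that were not called. The direction changed with distance: at 100 to 200 kb 18.4% of family pairs and 24.4% of other pairs were called, and at 600 kb to 1 Mb 5.27% (4.34 to 6.4) and 1.39% (1.31 to 1.47). Olfactory receptor (Olfr) genes made up 5388 of the 8703 possible family pairs. Without them 23.2% of family pairs and 24.4% of other pairs were called at 100 to 200 kb, and 14.4% (11.2 to 18.4) against 1.39% at 600 kb to 1 Mb.

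Promoter pairs built a network with many small groups and a few dense ones. The 14130 promoters had a median of 2 partners and a mean of 3.91, 30.6% had 1 partner and 1225 had at least 10. They fell into 1408 connected groups, 524 of which were a lone pair and the largest of which held 199 promoters. Where a promoter had 2 partners within 1 Mb of each other, those partners were themselves paired in 39.1% of cases, against 11.2% of all possible pairs, although partners of the same promoter also lie closer together than promoters at large.

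The promoter with the most partners was that of Eif5a, a translation factor gene on chromosome 11, with 46 of 97 possible partners. All 46 were listed with the partner as the bait, and only 8 with Eif5a as the bait. Its read counts ran from 5 to 142 with a median of 24, and its best partner was Mpdu1 (score 51.63). Gabarap, an autophagy gene on the same chromosome, had 37 partners, all listed from the partner and 1 from Gabarap. Mvp, the major vault protein gene, had 36, all listed from the partner and 6 from Mvp, and the keratin genes Krt33a and Krt23 had 35 and 34, with 4 and 9 listed from their own end. These promoters were thus mostly found from their partners' side.

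Gm11570, in a keratin cluster of chromosome 11, showed the reverse. Its 40 partners were all listed with Gm11570 as the bait and 1 from the partner, its read counts ran from 4 to 52 with a median of 7, and it had 0 contacts with unbaited fragments. For the others of the 10 promoters with the most partners, most pairs were again listed from the partner, but more from their own end than for Eif5a or Krt23. For 4930479M11Rik, 27 of 40 pairs were listed from its own end and 40 from the partner. These counts were 12 and 34 of 36 for Efnb3, an ephrin gene, and 21 and 33 of 33 for Wbp7, a histone methyltransferase gene. They were 22 and 27 of 32 for Nrarp, a regulator of Notch signalling, which tied with Zbtb32 (22 and 32 of 32) for the last place. Hi-C bin pairs covered 18 of the 46 pairs of Eif5a and 0 of those of Gm11570, 4930479M11Rik, Krt33a, Wbp7 and Nrarp. The cause of the lopsided listings was not tested.

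The densest sets of mutually paired promoters held 11 promoters and lay on chromosome 19. The 5 sets of this size drew on the same 14 promoters at chr19:8800231-9042523, from Snord22 and Wdr74 to Eef1g, a translation elongation factor gene. Of the 91 pairs these can form, 86 were called (94.5%), with scores of 5.25 to 37.6 and a median of 10.96, and 37 of them were covered by Hi-C. The 14 promoters were picked because they form sets in which every pair is called. Their called share was thus high by choice, beside 11.2% of all possible promoter pairs. The highest scores there were those of Ints5, an Integrator subunit gene, with Tut1, a uridylyl transferase gene, and with Bscl2, the gene of the lipid droplet protein seipin. The next sets held 10 promoters, some of them around the same genes and others in the major histocompatibility region of chromosome 17, such as chr17:35114200-35374297 with Lsm2, Vars, Ddah2, Ly6g6e and Nfkbil1, whose 45 pairs scored 5.71 to 38.58.

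**Figure D4:**
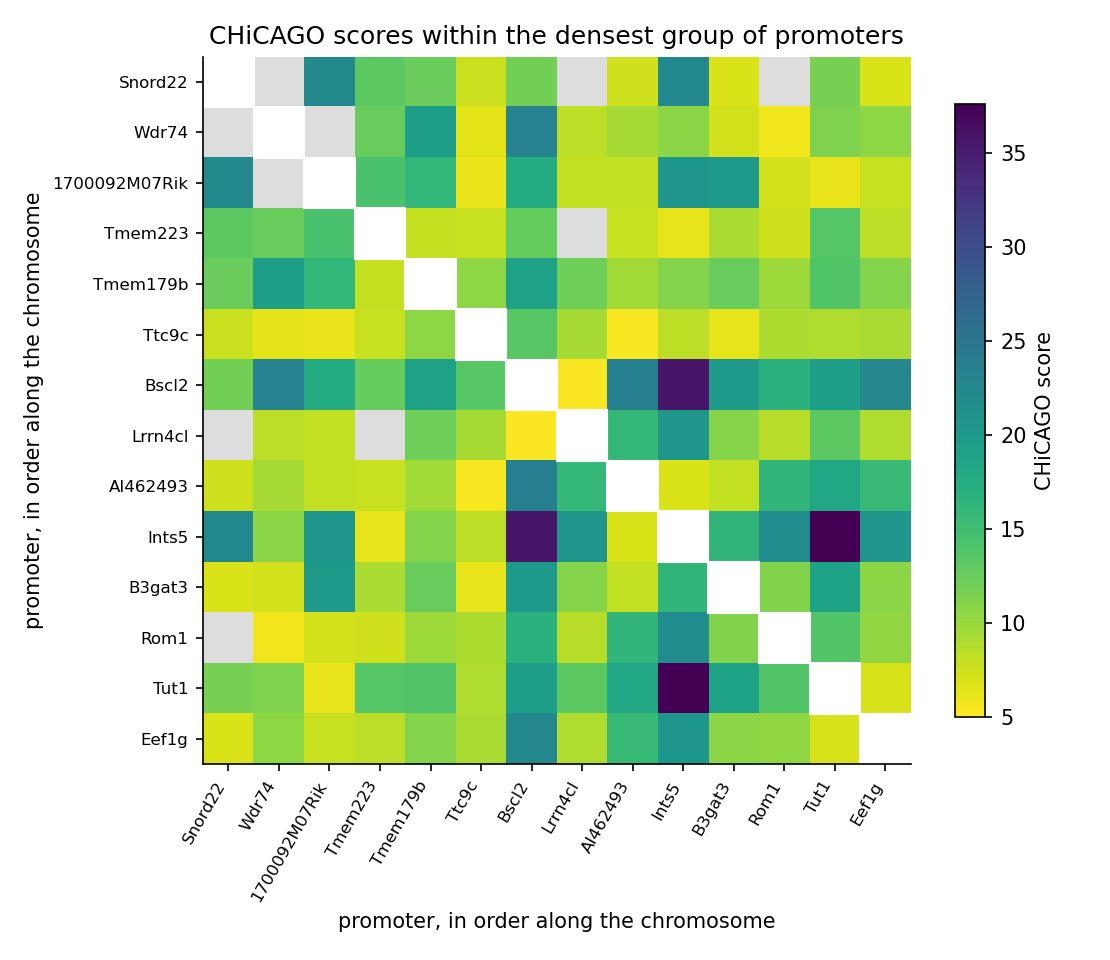
CHiCAGO scores (higher of both listings) between the 14 promoters of the densest group on chromosome 19, in order along the chromosome. Grey squares are pairs that were not called and the diagonal is blank. The Wdr74 fragment directly neighbours those of Snord22 and 1700092M07Rik, and such neighbours may not have been scored. By the choice of the group most pairs have a score (86 of the 91), and Ints5 with Tut1 has the highest, 37.6.

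Promoter pairs were found in the Hi-C calls less often than pairs of a promoter and an unbaited fragment. The Hi-C list gives 25-kb bins that met more often than expected, and 6135 bin pairs passed an FDR of 0.05. Of the promoter pairs 1531 fell within such a bin pair (5.54%, interval 5.27 to 5.81), against 7652 of 61407 pairs with an unbaited fragment (12.5%, 12.2 to 12.7). The share was lower for promoter pairs in all 40 combinations of 8 distance classes and 5 score classes and on all 20 chromosomes. Promoter pairs listed from both ends were classed by the higher score, and pairs with an unbaited fragment by their only score. Over 25-kb by 25-kb squares counted once each, since neighbouring fragments share a square, the shares were 4.10% of 21868 squares and 7.59% of 35848 squares.

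The share rose with the score in both kinds of pair. It went from 1.93% (1.65 to 2.26) of promoter pairs with a score of 5 to 6 to 36.1% (32.8 to 39.5) of those with 20 or more, and from 6.91% to 66.6% (63.5 to 69.5) of pairs with an unbaited fragment. Promoter pairs called from both ends were covered in 13.6% of cases (12.8 to 14.4) and those called from 1 of 2 bait ends in 3.04% (2.81 to 3.29). The bin pairs around promoter pairs held a median of 34 Hi-C reads where HOMER expected 9.21. Seen from the Hi-C side, 824 of the 6135 bin pairs held a promoter pair (13.4%), 2193 held a promoter with an unbaited fragment (35.7%), and 742 held both, so that 90.05% of the bin pairs with a promoter pair also held the other kind.

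**Figure D5:**
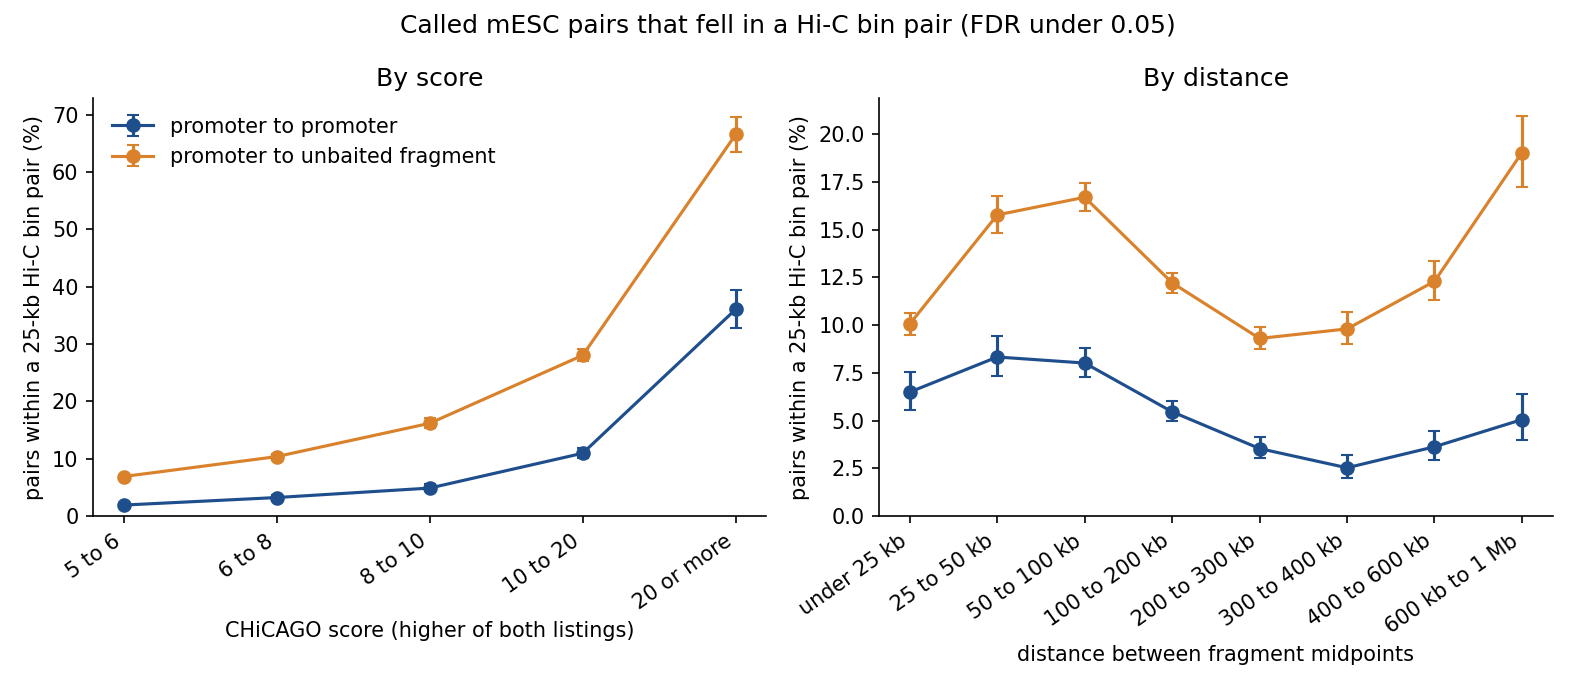
Share of called pairs within a Hi-C bin pair at an FDR under 0.05, by score class (left) and by distance class (right), with 95% Wilson intervals. The score is the higher of both listings for promoter pairs and the only one for pairs with an unbaited fragment. Promoter pairs (blue) lie below pairs with an unbaited fragment (orange) in every class, reaching 36.1% and 66.6% at scores of 20 or more.

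The pairs with the highest scores were also seen in Hi-C. The bin pair around Tbx3 and Lhx5 held 85 Hi-C reads where 2.65 were expected. That around 2810030E01Rik, Gm13334 and Bmi1 held 102 where 3.29 were expected, that around Irx3 and Irx5 held 70 where 3.75 were expected, and that around Nkx2-1 and Pax9 held 133 where 10.95 were expected. The pair with the highest CHi-C score, 5430417L22Rik with Bahd1, had the smaller Hi-C count of 16 where 2.74 were expected.

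The human cell line GM12878 was used to see which promoter pairs were called in another cell type and species. Genes were matched by symbol, which found 61674 of the possible mouse pairs with both genes listed and under 1 Mb apart in human. Of these 15.6% were called in GM12878. Of the 10373 matched pairs called in mESCs, 3488 were called in GM12878 (33.6%, interval 32.7 to 34.5), against 11.99% (11.7 to 12.3) of the pairs not called in mESCs. The share was higher for called pairs in each of the 8 distance classes, with 40.2% against 30.6% under 25 kb and 7.28% (4.86 to 10.8) against 1.38% at 600 kb to 1 Mb. It rose with the mESC score, from 28.4% (26.8 to 30.2) at 5 to 6 to 47.8% (42.2 to 53.5) at 20 or more. Wnt6 with Fev scored 34.52 in mESCs and 7.48 in GM12878, and Wnt10b with Dhh 40.46 and 5.46, whereas Lefty2 with Lefty1 was matched and not called in GM12878. The 10 highest-scoring mESC pairs could not be matched. Cell type, species and the sets of baits differ together here and cannot be told apart.

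CpG-rich promoters paired more than others. A promoter was called CpG-rich when the 300 bases around its start, 250 before and 50 from the start on, had a ratio of observed to expected CpGs of at least 0.6 and a GC content of at least 50%, which held for 7748 of 16897 baited fragments with an annotated start (45.9%). Both promoters were CpG-rich in 8288 of 27063 pairs with a start at both ends (30.6%, 30.1 to 31.2), against 20.4% of the possible pairs that were not called. The called share was 16.0% (15.6 to 16.3) with both promoters CpG-rich, 10.4% with 1 and 9.24% (9.04 to 9.45) with none. It was highest for 2 CpG-rich promoters in every distance class, for example 32.8% against 18.9% with none at 100 to 200 kb. The median score was 7.37 with both CpG-rich and 6.90 with none. GC content also bears on capture and sequencing, and its part in this difference was not tested.

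CTCF motifs gave no stable picture. The motif CCANNAGGGGGC, with N for any base, was sought on both strands and found in 4.29% of the listed baited fragments and in 0.818% of all HindIII fragments, which differ in length and base composition. Among 88 pairs with the motif on a single strand at each end, 18 were convergent (20.5%, 13.3 to 30.0), 44 pointed the same way and 26 were divergent, and 25.2% of such pairs that were not called were convergent. With the looser motif CCANNAGNNGGC, which 41.2% of the baited and 13.2% of all fragments hold, 965 of 3356 pairs were convergent (28.8%, 27.2 to 30.3) and 743 divergent (22.1%), against 24.7% and 25.7% of pairs not called. Convergent pairs were thus fewer than divergent ones with the first motif and more numerous with the looser one. For the first motif the interval of the convergent share covers the 25.2% of pairs not called. Of the 18 pairs with that motif and a score of at least 10, 7 were convergent (38.9%), too few pairs to give a direction. A match is a description of letters and not a site bound by CTCF.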

How the data were processed

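Promoter CHi-C calls of mESCs (2 biological replicates, called together) and GM12878 (3), and Hi-C calls of mESCs (1 library), were analysed. The members, the gene lists and the comparisons were chosen with earlier results of these data known.

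The authors mapped reads with HiCUP (Bowtie 1.1.0 in the submitters' processing notes) to mm9 or hg19 and called interactions with CHiCAGO under default settings. The deposited CHiCAGO score is a soft-thresholded, weighted negative log p-value, with calls of at least 5 listed. The deposited read count of a call is a rounded, weighted value over replicates. It was treated as a score, and no count model was fitted. For Hi-C, the authors deposited the count of reads joining 2 bins, the expected signal from HOMER (4.7 in the submitters' processing notes) and FDR values, which are adjusted p-values. The depth of each library was not given by these lists. Wilson 95% intervals of shares and order-statistic intervals of medians cover counting error only, and pairs that share a fragment are not independent. No test between groups was made.

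Distances were taken between fragment midpoints. All 52640 listed fragments matched a fragment of the mm9 sequence cut at HindIII sites. The read-count list was used, with the higher score of pairs listed from both ends, and a pair was taken to lie in a Hi-C bin pair when its midpoints did (FDR under 0.05). Possible pairs were all pairs of listed baited fragments under 1 Mb, Hist1h and Hox fragments left out. Directly neighbouring fragments were kept among them, although the authors recommend removing fragments adjacent to the bait, so some of these pairs may not have been scored. The share of all pairs at the same distances weights the called share of each of the 8 distance classes by the list's possible pairs. Families were stems of at least 3 letters before the first digit of a symbol, which also joins some unrelated genes and parts related ones such as Foxd2 and Foxe3. Mouse promoters were taken from the mm9 GENCODE vM1 annotation, since the RefSeq table at hand covered human genes. In this the analysis departed from its plan. Fragments named uce (114, in 153 pairs) were kept under that name.

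Named pairs were the 10 with the highest score, the 5 highest at 600 kb to 1 Mb, the 5 with the most reads over 100 kb, the 2 highest of each gene list and all of the pluripotency list, with the 10 promoters with the most partners and the largest mutually paired sets. Other pairs of developmental factors and signals, and the pairs not called that are named, were named after their values were seen. Some pairs and 1 promoter sequence chosen by these rules are not reported here. Scripts were tested on a simulated call list with known pairs. Python 3.11.15 with pandas 2.3.3, networkx 3.6.1 and statsmodels 0.14.6 was used. The GM12878 browser list and the 1-Mb Hi-C list were not used.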

Additional observations from a re-analysis of the deposited data

How the results depend on the processing

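No paired analysis was possible because the replicates of each cell type were called together and the lists hold no value per replicate, and for the same reason no replicate could be left out. Of 69 values of 10 results under alternatives, 27 stayed within the counting interval of the reported value (counts within 1.5 times), 42 moved beyond it, and none changed sign, as shares and counts cannot. With a score of at least 10 there were 6040 pairs (2.45% of possible pairs) with a median distance of 105538 bp, both scores reached 10 in 16.4%, Hi-C covered 14.2%, families made up 3.69%, developmental factors at both ends 0.596%, CpG-rich promoters 34.3% and convergent CTCF motifs 38.9% (7 of 18 pairs), and 41.6% of matched pairs were called in GM12878. With at least 10 reads there were 17478 pairs (7.09% of possible pairs) with a median distance of 95144.5 bp, of which 34.9% were called from both ends, and the Hi-C, family, developmental, CpG-rich and GM12878 shares were 8.02%, 4.01%, 0.229%, 32.0% and 38.3%. With baited fragments only where listed as a bait, 25.8% were called from both ends, 11.6% of possible pairs were called and families made up 4.16%. With Hist1h and Hox pairs kept, the both-ends, Hi-C and family shares were 25.2%, 6.50% and 5.46%. From 25 kb on, the median distance was 165194 bp, 10.52% of possible pairs were called, and the family and CpG-rich shares were 4.38% and 31.4%. Counting each listing gave 7.13% in Hi-C, 4.41% in families and 0.244% for developmental factors. The Hi-C share was 4.21% at an FDR under 0.01 and 20.7% with every listed bin pair. The family share was 3.19% with stems of 4 letters. Of matched pairs 11.24% reached a score of 10 in GM12878, and 17.7% of pairs were CpG-rich at both ends with a CpG ratio of 0.75. Alternatives chosen after seeing the data gave 7.28% of possible combinations for each bait end counted separately, Hi-C shares of 5.84% with bins as named and 4.10% over squares, and family shares of 2.84% without Olfr genes and 4.43% without stems shared by unrelated genes. Pairs with an unbaited fragment had 1.54 to 2.42 times the Hi-C share of promoter pairs under the alternatives run. Under the same alternatives 67.9% to 86.4% of the possible pairs of developmental factors were called, against 2.45% to 11.6% of all possible promoter pairs. Both shares were lowest with a score of at least 10. The causes of these shifts were not tested. Depth per replicate and detection below a score of 5 are not given by the lists, so absence of a call is not absence of contact.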
